A study of Malus hupehensis and Malus pumila and Malus sylvestris with 10 samples.

Results

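The chalcone synthase gene copies of apple were described in phloem of the crab apple Malus sylvestris. The set was chosen by gene ID: MD04G1003000, MD04G1003300 and MD04G1003400, given as neighbouring copies on chromosome 4, and MD13G1285100, given as a single copy on chromosome 13. All 4 IDs were found among the 38700 gene IDs of the expression table. That these IDs are chalcone synthase, and their chromosomes, come from the list that defined the set. The table pairs no ID with a name, and no annotation or sequence was used here, so the identity was not checked against the data.

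Chalcone synthase is a plant polyketide synthase and catalyses the first committed step of flavonoid synthesis. It joins a coumaroyl-CoA starter from the phenylpropanoid pathway with malonyl-CoA units to give naringenin chalcone. Flavonols, anthocyanins and proanthocyanidins are all made from that product. In apple the enzyme also accepts a reduced starter and gives phloretin, the parent of phloridzin, the dihydrochalcone glucoside that apple leaves, young shoots and bark hold in large amounts.

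The study sampled phloem, the tissue through which leaf sugars reach the rest of the plant, of apple rootstocks of dwarfing and of vigorous habit during active growth. Of its 10 samples, the 2 M. sylvestris samples are described here. They are labelled wild type, vigorous control and 60 days after bud break, with no treatment named. The 8 samples of the rootstocks A1d, B9, M9 and PYTC were not analysed here, so no contrast between rootstocks was made. Whether samples 1 and 2 were taken from different trees is not stated by the labels, so the SDs give only the spread between these samples, which may be technical. The p-values and intervals set fragments of the 2 libraries against counting error alone. Values are FPKM, fragments per gene relative to gene length and to library size, scaled by the authors. The depth inferred from the steps of low values was 18538960 fragments for library 1 and 16572066 fragments for library 2.

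Transcripts of all 4 copies were found in phloem, and each copy stood in the upper part of the expression range. All 4 reached 1 FPKM in both libraries, a level that 67.9% of all IDs reached in both. The summed level of the 4 copies was 392 FPKM in library 1 and 534 FPKM in library 2, a mean of 463 ± 100.04 FPKM (SD, n = 2). The sum made up 0.0594% of all FPKM in library 1 and 0.0802% in library 2. Taken as if it were 1 gene, it would have been exceeded by 113 of the 38700 IDs in mean level.

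MD04G1003000 was the most abundant copy. Its level was 179 FPKM in library 1 and 248 FPKM in library 2, a mean of 214 ± 48.6 FPKM (SD, n = 2). It ranked 409 among all IDs in library 1 and 282 in library 2, and 99.1% of IDs had a lower mean. MD04G1003300 followed. It stood at 124 FPKM (library 1) and 162 FPKM (library 2), a mean of 143 ± 26.9 FPKM (SD, n = 2). It ranked 684 and 476 in the respective libraries, and 98.5% of IDs had a lower mean. The ranges of these copies over the 2 libraries did not overlap, either with each other or with the lower copies.

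The remaining copies were less abundant. MD04G1003400 stood at 51.6 FPKM (library 1) and 71.7 FPKM (library 2), a mean of 61.6 ± 14.3 FPKM (SD, n = 2). Its rank was 2226 in library 1 and 1484 in library 2, and 95.3% of IDs had a lower mean. The chromosome 13 copy MD13G1285100 was the lowest, at 37.4 FPKM (library 1) and 51.9 FPKM (library 2), a mean of 44.6 ± 10.3 FPKM (SD, n = 2). Its rank was 3292 in library 1 and 2226 in library 2, and 93.2% of IDs had a lower mean. The ranges of these 2 copies overlapped, since MD13G1285100 in library 2 was slightly above MD04G1003400 in library 1.

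**Figure D1:**
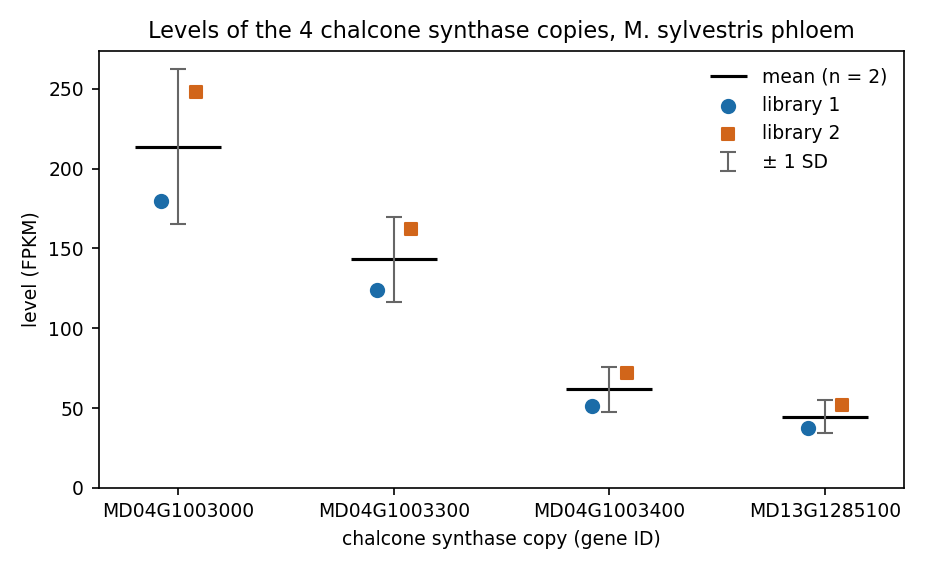
Level in FPKM of each chalcone synthase copy in library 1 (circles) and library 2 (squares) of M. sylvestris phloem, with the mean (line) and 1 SD (bars, n = 2). The copies fall in the same order in both libraries, from 179 and 248 FPKM for MD04G1003000 to 37.4 and 51.9 FPKM for MD13G1285100, and library 2 is the higher for each.

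Within each library the order of the copies was the same, and their proportions were close. Ratios between copies are given per length, with 95% exact intervals that cover counting error only. MD04G1003000 stood 1.45-fold above MD04G1003300 in library 1 (1.39 to 1.504) and 1.53-fold above it in library 2 (1.48 to 1.59). MD04G1003300 stood 2.41-fold above MD04G1003400 in library 1 (2.26 to 2.56) and 2.26-fold above it in library 2 (2.14 to 2.39). MD04G1003400 stood 1.38-fold above MD13G1285100 both in library 1 (1.27 to 1.499) and in library 2 (1.28 to 1.49). No interval held 1, so neighbours in the order differed beyond counting error inside each library, including the pair whose ranges overlapped across libraries. The mean of the highest copy was 4.79 times that of the lowest.

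The family sum was carried mainly by the chromosome 4 copies. Together these 3 of the 4 copies made up 90.5% of the summed FPKM in library 1 and 90.3% in library 2. They totalled 355 and 482 FPKM. Their sum was 9.51 times the level of the chromosome 13 copy in library 1 and 9.29 times in library 2. MD04G1003000 alone took 45.7% of the family sum in library 1 and 46.5% in library 2, a mean of 46.1% ± 0.539 (SD, n = 2). MD04G1003300 took 31.0% ± 0.896, MD04G1003400 took 13.3% ± 0.211 and MD13G1285100 took 9.62% ± 0.146 (SD, n = 2 each). The shares thus moved by little over 1 percentage point at most between libraries, for MD04G1003300, from 31.6% to 30.4%.

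The share of the leading copy was larger in fragments than per length. The values correspond to 9103 fragments in library 1 and 11255 in library 2 for MD04G1003000, over a recovered gene length of 2736 bases. The other copies had recovered lengths of 1511 bases (MD04G1003300), 1515 bases (MD04G1003400) and 1382 bases (MD13G1285100). MD04G1003300 had 3477 and 4059 fragments in the respective libraries. MD04G1003400 had 1448 and 1801, and MD13G1285100 had 957 and 1189. In fragments MD04G1003000 held 60.7% of the family in library 1 (95% exact interval 60.0% to 61.5%) and 61.5% in library 2 (60.8% to 62.2%). Its recovered length was the longest of the 4, and division by length lowered its share to the 45.7% and 46.5% given above. Whether that length takes in sequence outside chalcone synthase was not tested. If it does, the level, rank and share of MD04G1003000 are not those of chalcone synthase alone. The family sum and every share of it would then be affected too. Recovered lengths and fragments are the smallest that give whole fragments in both libraries, and true ones could be a multiple of them. The sources used here do not say how the authors assigned reads that fit several near-identical copies, so the division between copies is uncertain.

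**Figure D2:**
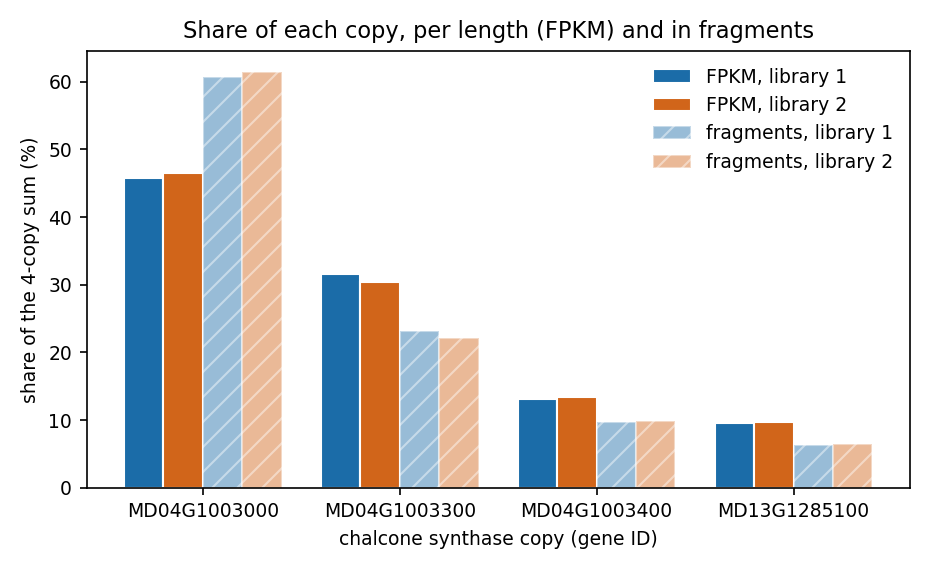
Share of the 4-copy sum in percent for each copy, from FPKM (solid bars) and from recovered fragments (hatched bars), in library 1 (blue) and library 2 (orange). MD04G1003000 rises from 45.7% and 46.5% per length to 60.7% and 61.5% in fragments, while the order of the copies stays the same.

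Library 2 held more of every copy than library 1, by similar factors. The ratio of library 2 to library 1 was 1.38 for MD04G1003000 (95% exact interval 1.35 to 1.42). It was 1.31 for MD04G1003300 (1.25 to 1.37), 1.39 for MD04G1003400 (1.30 to 1.49) and 1.39 for MD13G1285100 (1.28 to 1.51). On the log2(FPKM + 1) scale, library 2 minus library 1, the differences were 0.47, 0.38, 0.47 and 0.46 in the same order, and 0.44 for the family sum. The intervals of the ratios overlap. The split of fragments among the copies did not differ detectably between libraries (chi-square test of fragments by copy and library, chi-square = 5.002, 3 degrees of freedom, p = 0.172). This does not show that the proportions are the same.

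All 4 copies differed between the libraries beyond counting error in a two-sided exact binomial test of fragments against the library totals, adjusted by the Benjamini-Hochberg method over 30618 IDs. The adjusted p-values ran from 8.73e-115 for MD04G1003000 to 1.72e-12 for MD13G1285100. The same test called 15.3% of the IDs tested in either direction and 6.32% as higher in library 2. Among the 2314 IDs with a mean between the lowest and the highest copy, which have more fragments, it called 22.0% as higher in library 2 and 37.0% in either direction. The test compares 2 libraries of 1 rootstock, with no replicate check, and does not compare conditions.

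The size of the difference was in the outer part of the spread, both among IDs at 10 FPKM or more and among those in the level range of the copies. Across the 12757 IDs that averaged at least 10 FPKM, differences centred on a median of -0.01 with an SD of 0.23, in log2(FPKM + 1) units. Of these IDs, 98.8% had a smaller signed difference than MD04G1003000 and 97.1% a smaller one than MD04G1003300. For MD04G1003400 and MD13G1285100 the share was 98.8% and 98.7%. Among the 2314 IDs in the level range of the copies, 81 (3.50%) were at least as much higher in library 2 as the least differing copy. A further 67 were as much lower. The coefficient of variation between libraries was 18.8% to 23.1% for the copies and 21.6% for their sum, against a median of 5.13% for IDs in that range. Whether the copies share reads was not tested. Copies that did would not give independent values.

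**Figure D3:**
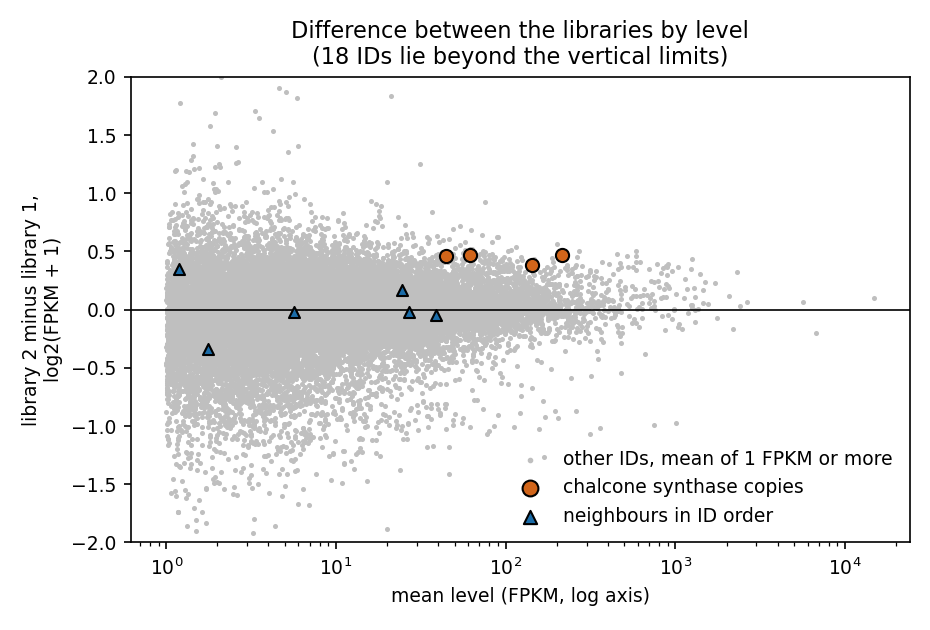
Difference between the libraries (library 2 minus library 1, log2(FPKM + 1)) against mean FPKM on a log axis for 27203 IDs that averaged at least 1 FPKM. Among these, the copies are orange circles, their neighbours in ID order are blue triangles and the other IDs are grey. The copies lie between 0.38 and 0.47, above most but not all IDs of like level, and 18 IDs lie beyond the vertical limits.

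The IDs next to the copies in ID order stood at lower levels than the copies beside them. None of these neighbours has a name in the table. Between the chromosome 4 copies lie MD04G1003100, listed at 0 in both libraries, and MD04G1003200, which had 0.245 FPKM (library 1) and 0.549 FPKM (library 2) on at least 1 and 2 fragments. Beyond the last chromosome 4 copy, MD04G1003500 stood at 27.0 FPKM (library 1) and 26.6 FPKM (library 2), and MD04G1003600 at 39.2 and 38.0 FPKM. Before the first, MD04G1002900 stood at 5.67 and 5.59 FPKM and MD04G1002800 at 1.04 and 0.927 FPKM.

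Around the chromosome 13 copy levels were also lower than its own. MD13G1285500 stood at 23.0 FPKM (library 1) and 25.9 FPKM (library 2), MD13G1285000 at 2.08 and 1.44 FPKM, and MD13G1284900 at 0.924 and 1.45 FPKM. MD13G1285300 was listed at 0 in library 1 and at 0.181 FPKM in library 2. Of these 10 neighbours, 7 had enough fragments for the exact binomial test. It called 0 of the 7 at an adjusted p under 0.05, and 0 at an unadjusted p under 0.05. At an adjusted p under 0.05 it called 15.3% of all IDs tested, so 0 among so few neighbours does not set them apart. The share of all IDs at an unadjusted p under 0.05 is not given here. MD04G1003600 had more fragments than MD13G1285100 in each library. Whether the difference between the libraries itself differs between a copy and a neighbour was not tested.

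**Figure D4:**
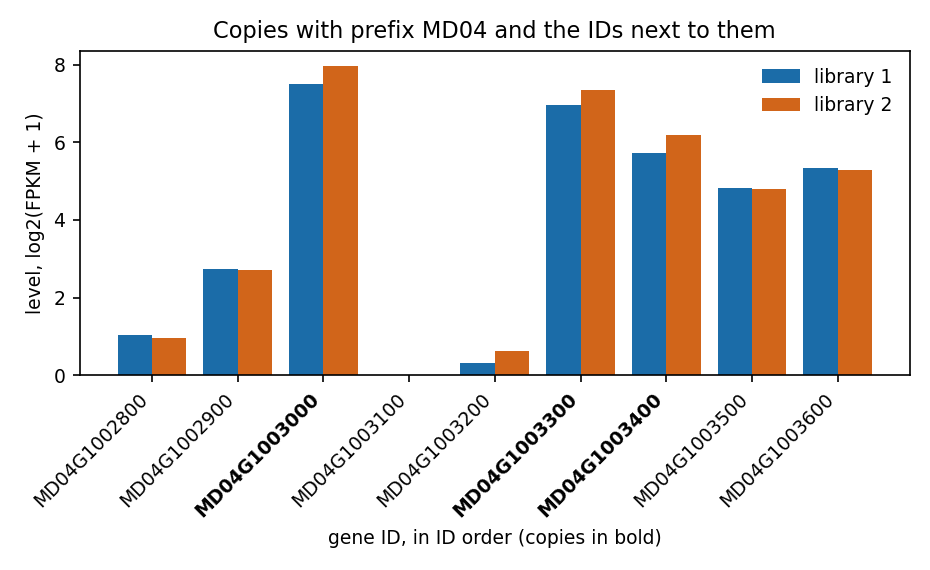
Level as log2(FPKM + 1) in library 1 (blue) and library 2 (orange) for the chromosome 4 copies (bold) and the IDs between and beside them, in ID order. The copies stand above all 6 of the IDs shown beside them, and MD04G1003100 is listed at 0. The bars of library 2 exceed those of library 1 at each copy and at MD04G1003200, but not at the other IDs shown.

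The IDs closest to a copy in mean level differed less between the libraries than the copies did. For each copy the ID next above and the ID next below in mean FPKM were taken, 8 in all. Their ratios of library 2 to library 1 ran from 0.952 (MD09G1066400) to 1.23 (MD13G1237300), with 4 of the 8 higher in library 2. MD14G1183800, next above MD04G1003000, stood at 221 FPKM (library 1) and 213 FPKM (library 2). MD11G1029100, next above MD04G1003400, stood at 61.3 and 62.0 FPKM. The exact binomial test called 1 of the 8, MD13G1237300, which stood next below MD04G1003400 at 55.4 FPKM (library 1) and 67.9 FPKM (library 2). Among all IDs in the level range of the copies it called 37.0%. Likeness here is of mean level alone. A likeness of pattern cannot be measured over 2 libraries.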

How the data were processed

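Phloem RNA of M. sylvestris was sequenced in 2 samples. Per the labels' protocols, libraries came from a stranded kit that selects messenger RNA. The submitters' processing notes list the tools HISAT2, HTSeq, Trimmomatic and Cufflinks, giving neither versions nor roles. Genome build, gene models and handling of shared reads were not given in the sources used here. Values were deposited as FPKM by the authors, per the labels. Library columns were matched to samples by species and replicate number.

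Fragments were recovered as the smallest length from 50 to 30000 bases that makes both values whole. At the inferred totals all 35889 IDs above 0 (100% of them) came out within 2.87e-05 of whole fragments in both libraries. With both totals set 0.1% too high, 7.63% met the same tolerance, with 1 of the 4 copies among them. That tolerance grows with the fragments of an ID and was at most 0.00458 of a fragment at the inferred totals. A whole value does not make the fragments exact, since a common factor is lost, and the recovered fragments sum to 90.2% of each inferred total. The recovery and the exact binomial test were tested on simulated data of known fragments. There the recovery gave the exact fragments for 84.8% of the IDs with fragments in both libraries and missed them for the rest of those IDs. IDs at 0 in either library were left out of that share. The exact binomial test called 97% of 2-fold changes and 100% of 4-fold changes in those data. Changes were planted only in IDs with 100 or more fragments over both libraries, so these shares do not cover IDs with fewer. The simulated fragments varied by counting error alone. The exact binomial test also called 16 unchanged IDs, with 30114 IDs tested in all. The test was run on IDs with 10 or more fragments. Log2 differences use a pseudocount of 1, which understates the change of low genes. Intervals cover counting error only. Python 3.11.15 and scipy 1.17.1 were used.

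Members and lists were chosen with earlier results of these data known. Named IDs are the 4 copies, the IDs between the chromosome 4 copies, the 2 IDs on either side in ID order, and the ID next above and below each copy in mean FPKM. Other flavonoid genes were to be named only from an annotation, and were not analysed here. Alternatives were another pseudocount, floor, filter or scaling, fragments in place of FPKM, and each library alone.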

Additional observations from a re-analysis of the deposited data

How the results depend on the processing

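The family sum was 392 FPKM or 534 FPKM with 1 library left out, 466 FPKM with library 2 rescaled by the median ratio (log2 of -0.02), and 698 TPM after each library was scaled to the same sum. All 4 copies stayed detected at floors of 0, 5 and 10 FPKM and with either library alone, and 2 at a floor of 100 FPKM in both libraries. These counts only restate the levels of the copies. The share of all IDs is given only for 1 FPKM in both libraries, where it was 67.9%, so the other counts have no such share beside them. The difference of the family sum between libraries was 0.44 with pseudocounts of 0.1 and 0.01 and 0.46 after rescaling. No copy changed direction, but none could have under these settings. A pseudocount keeps the sign of a difference, and the rescaling raised library 2. All 4 copies were called in the exact binomial test with no filter on fragments, with 20 or more fragments and with the median ratio as the null. The filters could not remove a copy, since each had at least 957 fragments in each library, and changed only the adjustment. The median ratio moved the null little. These settings therefore put the calls to no real test, and the share of all IDs called under them is not given here. With recovered fragments in place of FPKM, the mean share was 61.1% for MD04G1003000, 22.7% for MD04G1003300, 9.75% for MD04G1003400 and 6.44% for MD13G1285100; shares per length divide by the recovered lengths. Counted against IDs that averaged at least 1 FPKM, the copies exceeded 98.8%, 97.9%, 93.4% and 90.3% of IDs in the same order. No paired analysis was possible because only 1 group was analysed. The copy with the fewest fragments had 957 in library 1, so counting error is small for all 4. With only 2 samples the spread between samples is poorly known. The handling of shared reads and the length of MD04G1003000 add uncertainty that was not measured.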
